A study of Homo sapiens with 5 samples.

Results

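NF-kB is a family of transcription factors, and the 10 genes examined here encode its 5 subunits (NFKB1, NFKB2, REL, RELA and RELB) and 5 proteins through which the pathway acts back on itself (NFKBIA, NFKBIE, TNFAIP3, TRAF1 and BIRC3). They were chosen by name, with earlier results of these data known, as 10 of 20098 annotated protein-coding genes. For each gene, the peaks of Fra-1, MYC and E2F1 were collected from its promoters, its body and 50 kb on either side on hg19. A promoter was the stretch from 2.0 kb upstream to 2.5 kb downstream of any annotated transcription start site (TSS).

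In unstimulated cells NF-kB dimers are held in the cytoplasm by inhibitor proteins (IkB), and receptors such as those for tumour necrosis factor release them through a kinase complex that marks the inhibitors for destruction. The dimers then enter the nucleus, bind a short motif and switch on, among other genes, those of their own subunits, inhibitors and signalling proteins, so that the response is both reinforced and ended. Basal-like breast cancer cells are known for NF-kB activity without an added stimulus, and the AP-1 family, to which Fra-1 belongs, shares many target genes with NF-kB.

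ChIP-Seq was performed in LM2 cells, a highly metastatic line derived from the breast cancer cells MDA-MB-231, to learn where transcription factors bind. Of the 5 samples, 3 were precipitated with an antibody against Fra-1, MYC or E2F1 and were used here, 1 was precipitated with an antibody against EZH2 and 1 was input DNA, and for these last samples no peak list was analysed here. All samples came from the same cell line, no treatment or stimulus is named, and none of the antibodies was directed against an NF-kB subunit. There was 1 library per factor, so no value below has a replicate error, no difference was tested, and all values describe these libraries.

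The MYC library was the deepest, with 23853621 tags after filtering against 12931227 for Fra-1 and 18056168 for E2F1, yet its list was the shortest. On chromosomes 1 to 22 and X it held 4857 peaks, against 17311 for Fra-1 and 36901 for E2F1. The 3 lists therefore differ in how often they reach any gene, and the counts of members with a peak are given beside the share of all protein-coding genes.

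E2F1 had a promoter peak at every one of the 10 genes, Fra-1 at 5 and MYC at 2. Over all protein-coding genes, 61.3% had a promoter peak of E2F1, 13.2% of Fra-1 and 17.8% of MYC. Fra-1 was at the promoters of NFKB1, RELA, NFKBIA, TNFAIP3 and TRAF1, and MYC at those of NFKB1 and NFKBIA. Both of the latter genes thus had promoter peaks of all 3 factors (2 of 10), which 4.67% of protein-coding genes had. The share for MYC was close to that of all genes, whereas for Fra-1 and E2F1 it was higher in the lists as deposited. This depended on the length of the lists. When each list was reduced to its 4857 peaks of largest −log10 q, no member kept an E2F1 or Fra-1 promoter peak (0 of 10 for both). Of all protein-coding genes, 25.6% and 3.41% did. The MYC list holds 4857 peaks and was not reduced, so its 2 members stayed by construction. The choice of TSS mattered for 1 gene: the Fra-1 peak of NFKB1 lay +34197 bp from the canonical TSS, and with only 1 canonical TSS per gene 4 members kept a Fra-1 promoter peak, against 7.2% of all genes.

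When the gene and its 50 kb flanks were counted together, Fra-1 peaks were found at 8 members, MYC peaks at 7 and E2F1 peaks at 10, against 55.8%, 39.5% and 83.0% of protein-coding genes. Peaks of all 3 factors were found around 6 members, against 27.3% of genes. The members' territories were of ordinary size, with a median of 119.0 kb against 127.3 kb over all genes. Outside the promoter windows of any gene, Fra-1 had peaks at 6 members (38.4% of all genes), E2F1 at 5 (38.5%) and MYC at 0 (6.05%), so no member had such peaks of all 3 factors (4.56% of all genes). With 10 genes, a count of 0 is near the share of all genes for MYC and for all 3 factors.

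**Figure D1:**
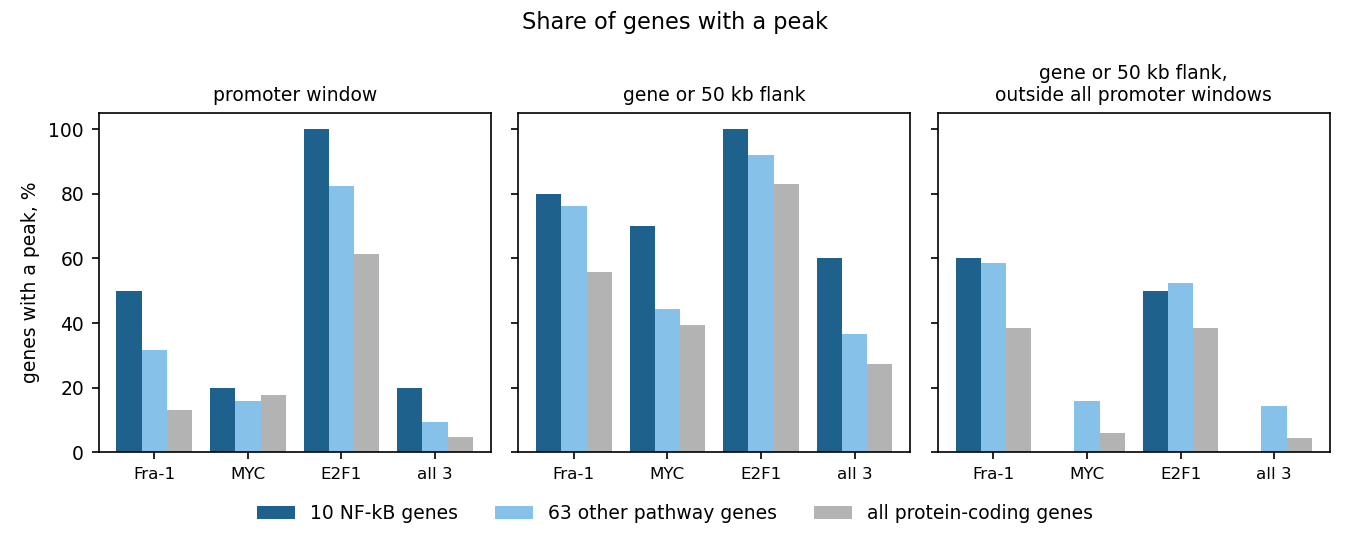
Share of genes with a peak, in percent, for the 10 NF-kB genes (dark blue), 63 other genes of the pathway (light blue) and all 20098 protein-coding genes (grey), by factor and for all 3 factors. All 10 NF-kB genes had an E2F1 promoter peak, and none had a MYC peak outside promoter windows.

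The sequences upstream of the start sites were searched for motifs. Feedback genes of the pathway are by definition genes that NF-kB switches on, so an NF-kB motif there is not independent of the choice of genes. Within 250 bp upstream of the canonical TSS, the NF-kB motif (the 10-letter consensus, searched on both strands) was present at 8 of the 10 genes, against 5.88% of 19819 protein-coding genes (1166) and 15 of the 63 other pathway genes. RELA and TRAF1 were the exceptions. For comparison, the AP-1 motif (TGACTCA or TGAGTCA, which are each other's reverse complement) was present in this window at 1 member (NFKBIE) and 3.06% of genes, the E-box CACGTG, the MYC motif, at 2 members (RELB and TNFAIP3) and 7.87% of genes, and the E2F motif at 1 member (REL) and 3.77% of genes. Several of these genes are textbook NF-kB targets. Of the 12 sites found, 11 are given because most of them lie under the E2F1 peaks of these genes. They are hg19 sequences on the strand of the gene, 5′ to 3′, with capitals for the motif.
NFKB1, chr4:103422457-103422486 (+): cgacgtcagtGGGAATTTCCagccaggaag
NFKB2 site 1, chr10:104155276-104155305 (+): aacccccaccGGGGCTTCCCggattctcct
NFKB2 site 2, chr10:104155431-104155460 (+): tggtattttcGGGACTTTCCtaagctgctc
REL, chr2:61108653-61108682 (+): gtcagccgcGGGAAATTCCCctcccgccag
RELB site 1, chr19:45504581-45504610 (+): gtgacgcgtgGGGGTTTTCCcgttccccag
RELB site 2, chr19:45504653-45504682 (+): cggcggcgccGGGGAATTCCgccgccccgc
NFKBIA, chr14:35874017-35874046 (-): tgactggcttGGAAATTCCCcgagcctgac
TNFAIP3 site 1, chr6:138188319-138188348 (+): acgtgactttGGAAAGTCCCgtggaaatcc
TNFAIP3 site 2, chr6:138188331-138188360 (+): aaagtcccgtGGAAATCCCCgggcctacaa
BIRC3 site 1, chr11:102188006-102188035 (+): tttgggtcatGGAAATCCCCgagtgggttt
BIRC3 site 2, chr11:102188070-102188099 (+): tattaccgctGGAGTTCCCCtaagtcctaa
In REL, 2 overlapping matches form 1 site of 11 bases.

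Of all 12 sites, 9 (75.0%) lay under an E2F1 peak, and none lay under a Fra-1 or MYC peak. Fra-1 had promoter peaks at 5 members and MYC at 2. For Fra-1 and MYC the share of such sites over all genes was not computed, so the absence cannot be set against it. The sites under E2F1 belonged to 6 genes: NFKB1, NFKB2, REL, NFKBIA, TNFAIP3 and BIRC3. Both sites of RELB were outside its E2F1 peak, whose summit was 582 and 510 bp away. In NFKBIA, the site centred -76 bp from the TSS was 14 bp from an E2F1 summit. The sites of NFKB1 (-45 bp), NFKB2 (site 2, -17 bp), REL (-42 bp) and TNFAIP3 (site 2, -51 bp) were 38, 31, 47 and 33 bp from theirs. Over all genes, 493 of 1227 such sites (40.2%) lay under an E2F1 peak. That 40.2% includes sites of genes without an E2F1 promoter peak, which every member had. Among the genes with both a site and an E2F1 promoter peak, at least 1 site lay under the peak in 6 of 8 members and in 479 of 735 protein-coding genes. In this matched comparison the members were near the share of all genes. A motif match describes the sequence and does not show that NF-kB was bound.

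**Figure D2:**
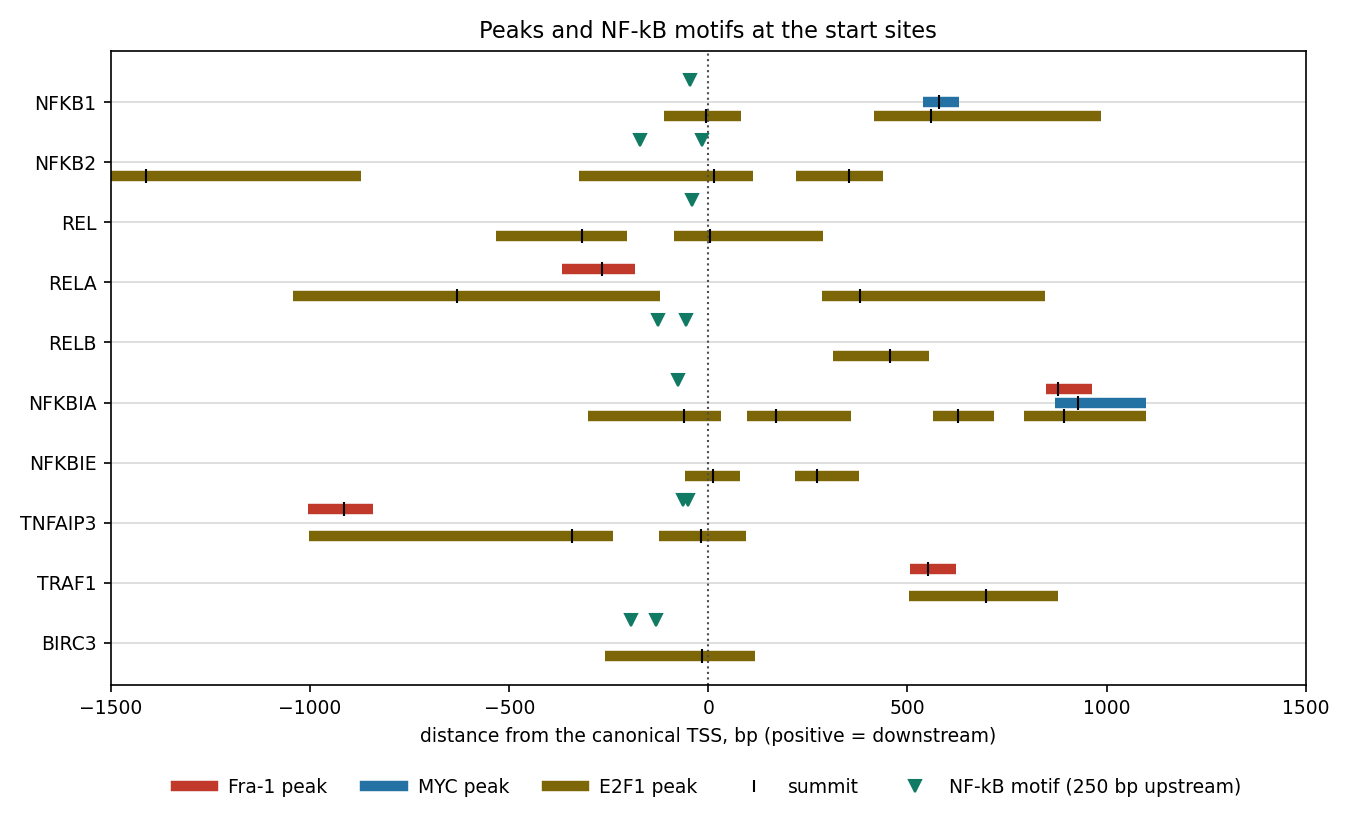
Peaks of Fra-1 (red), MYC (blue) and E2F1 (brown) within 1500 bp of the canonical TSS of each gene, with summits as black ticks and the 11 NF-kB motifs given above as green triangles. The x axis is the distance from the TSS in bp. E2F1 peaks covered the motif in 6 genes. The Fra-1 and MYC peaks, called at fewer of these promoters, lay to the side of it or were missing.

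At summits themselves (50 bp either side), the NF-kB motif was found at 5 of the 87 E2F1 peaks around the members (5.75%, against 1.88% of all E2F1 peaks). These were at NFKB1, NFKB2, NFKBIA, TNFAIP3 and, in the flank of RELA, at MAP3K11. The motifs at NFKB1, NFKB2, NFKBIA and TNFAIP3 are sites listed above, so this share is not independent of the choice of genes. The NF-kB motif was found at 1 of 21 Fra-1 peaks (4.76%, against 1.2%), upstream of BIRC2 in the flank of BIRC3. It was found at 0 of 13 MYC peaks (against 1.61%). The E2F motif TTTCCCGC, TTTCGCGC, TTTGCCGC or TTTGGCGC was found at 0 of the 87 E2F1 summits (1.68% of all E2F1 peaks), and the E-box at 0 of the 13 MYC summits (16.8% of all MYC peaks).

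The strength of a peak is given as its fold enrichment, the height of the fragment pileup at the summit over the local background from the input. Every member with a promoter peak lay below the median of all genes bound by that factor. For Fra-1 the strongest promoter peaks of the 5 members had a median of 5.60 (5.08 to 7.60), against 8.38 for the 2662 bound genes. For MYC both members were below the median of 7.22 for 3587 genes. For E2F1 the 10 members had a median of 16.3 (8.13 to 19.3), against 22.02 for 12321 genes. The other pathway genes had medians of 9.24 (Fra-1), 6.46 (MYC) and 20.5 (E2F1). Thus E2F1 reached all 10 promoters, each with a peak below the median of the bound genes. Within the whole E2F1 list, where further peaks of a gene and peaks outside promoters are counted too, the same 10 peaks were at percentiles 44.9 (TRAF1) to 79.8 (TNFAIP3).

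**Figure D3:**
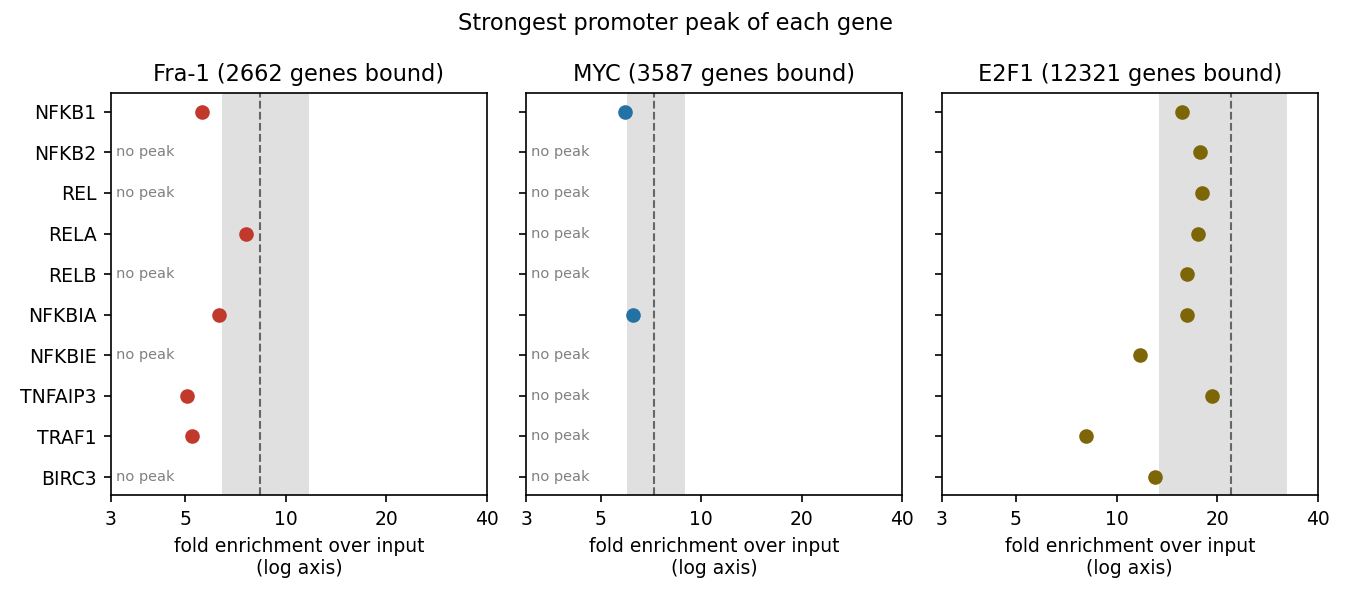
Fold enrichment over input of the strongest promoter peak of each gene (points, log axis) for Fra-1, MYC and E2F1. The dashed line is the median and the grey band the interquartile range over all protein-coding genes bound by that factor, and every point lies to the left of the line.

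Among the subunits, E2F1 promoter peaks were close in strength. REL, the gene of c-Rel, had a fold enrichment of 18.0, and NFKB2, which encodes p100 and its product p52, had 17.8. RELA, the gene of p65, had 17.5, RELB, the partner of p52, had 16.3, and NFKB1, which encodes p105 and p50, had 15.7. These values were at percentiles 31.8 to 38.3 of the genes bound by E2F1, and without replicates no order among them can be drawn.

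NFKB1 had 2 E2F1 peaks, with summits at -7 and 558 bp from the TSS and fold enrichments of 15.7 and 13.4. The MYC peak (5.91, with a −log10 q of 4.20, q being the false discovery rate of the peak caller) overlapped the second, with summits 22 bp apart. The Fra-1 peak in an intragenic promoter window was weak (5.60), although it held an AP-1 motif, as did a still weaker peak at +139489 bp in an intron (3.77, nearest to MANBA). NFKB1, the longest of the 10 genes (115973 bp), therefore had only 5 peaks in all.

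REL, in a territory with few peaks, had E2F1 alone: summits at -317 bp (6.65) and 5 bp (18.0) from the TSS were the only peaks of any factor within the gene and its flanks. NFKB2 likewise had no Fra-1 peak, but it had 14 E2F1 peaks and 3 MYC peaks. Of the E2F1 peaks 5 were in NFKB2 promoters (6.72 to 17.8), while the strongest (22.2) and all 3 MYC peaks (5.01 to 9.05) were nearest to FBXL15 or C10orf95.

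RELA had a Fra-1 peak at -268 bp with a fold enrichment of 7.60, the highest among the members' promoters (percentile 43.5 of the bound genes). It lay inside an E2F1 peak (17.5), whose summit was 364 bp away, and held no AP-1 motif. The strong E2F1 peaks around RELA were elsewhere. One of 51.5 lay at +10090 bp, just beyond the end of the gene and in a promoter window of another annotated gene, and one of 55.7 lay at the promoter of MAP3K11. The only MYC peak was nearest to SIPA1 (7.98). RELB had a single E2F1 promoter peak, at 455 bp (16.3). Its Fra-1 and MYC peaks were both at the start sites of GEMIN7 and MARK4, at 77745 and 77851 bp from the RELB TSS, where they overlapped an E2F1 peak of 30.7.

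The feedback inhibitors differed more. NFKBIA encodes IkB-alpha, the inhibitor made first after NF-kB is activated. Its promoter carried 4 E2F1 peaks, and the strongest (16.3, 894 bp inside the gene) overlapped a MYC peak (6.26) and a Fra-1 peak (6.32). The 3 summits lay within 49 bp, and all 3 peaks shared 94 bp at chr14:35872992-35873085, in the transcribed region of the gene. This was the only promoter of the 10 genes where peaks of the 3 factors overlapped. The E2F1 peak over the NF-kB motif was the weakest of the 4 (7.25).

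NFKBIA also had the strongest Fra-1 peak around any member. At +38401 bp, in intergenic sequence beyond the 3′ end of the gene, Fra-1 reached a fold enrichment of 25.02 and a −log10 q of 52.3, which put it at percentile 98.0 of all Fra-1 peaks. An E2F1 peak of 15.5 had its summit 6 bp away. A second pair lay at +39073 bp, with 17.4 for Fra-1 and 13.0 for E2F1 and summits 11 bp apart. The 2 pairs of peaks were nearest to NFKBIA among protein-coding genes, although the second was in a promoter window of a non-coding gene. Weaker pairs were found at +30224 bp (5.24 and 8.92) and -15429 bp (6.21 and 10.0). All 5 Fra-1 peaks around NFKBIA overlapped an E2F1 peak, and no MYC peak lay outside its promoter.

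TNFAIP3 encodes A20, an enzyme that edits ubiquitin and shuts down signalling to NF-kB. Its promoter had the strongest E2F1 peak among the members (19.3, at -342 bp) and a second at -18 bp (12.2) over its pair of NF-kB motifs. The Fra-1 promoter peak was the weakest among the members (5.08, at -916 bp, −log10 q of 3.89). Fra-1 was stronger upstream. A peak of 13.8 at -13524 bp (percentile 84.9) had no E2F1 peak over it, and one of 7.53 at -34951 bp had an E2F1 peak of 5.91 with its summit 8 bp away. No MYC peak was found at TNFAIP3.

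NFKBIE, the gene of IkB-epsilon, had no Fra-1 or MYC promoter peak. Its E2F1 peaks at 12 and 274 bp were weak (8.25 and 5.56), and the strongest peak in one of its promoter windows (11.8) was nearest to SLC35B2, the adjacent gene. All peaks in its flanks were nearest to start sites of other genes. That of HSP90AB1, which encodes the chaperone HSP90-beta, had an E2F1 peak of 77.8, a MYC peak of 17.9 and a Fra-1 peak of 5.91. A Fra-1 peak at +27976 bp (10.9) lay outside all promoter windows and overlapped an E2F1 peak of 13.1. By protein-coding TSS it too was nearest to HSP90AB1.

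The last 2 genes encode signalling proteins that join the receptor complexes. TRAF1, an adaptor induced by NF-kB, had the weakest E2F1 promoter peak (8.13, at 697 bp, percentile 9.6) and a Fra-1 peak (5.24, at 551 bp) within the transcribed region. In an intron at +16617 bp, Fra-1 (5.88) and E2F1 (4.70) had summits 1 bp apart. BIRC3, which encodes the ubiquitin ligase cIAP2, had an E2F1 peak centred on its TSS (13.1, at -16 bp) and no Fra-1 promoter peak. Its Fra-1 peak lay at +6613 bp in an untranslated part of the transcript (8.58), again with an E2F1 summit (4.72) 1 bp away. The remaining 3 Fra-1 peaks in the flank of BIRC3 (7.38 to 10.0) were at the promoter of the adjacent BIRC2, which encodes cIAP1. The strongest peaks around TRAF1 were at PHF19, with 21.4 for Fra-1 and 43.1 for E2F1.

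**Figure D4:**
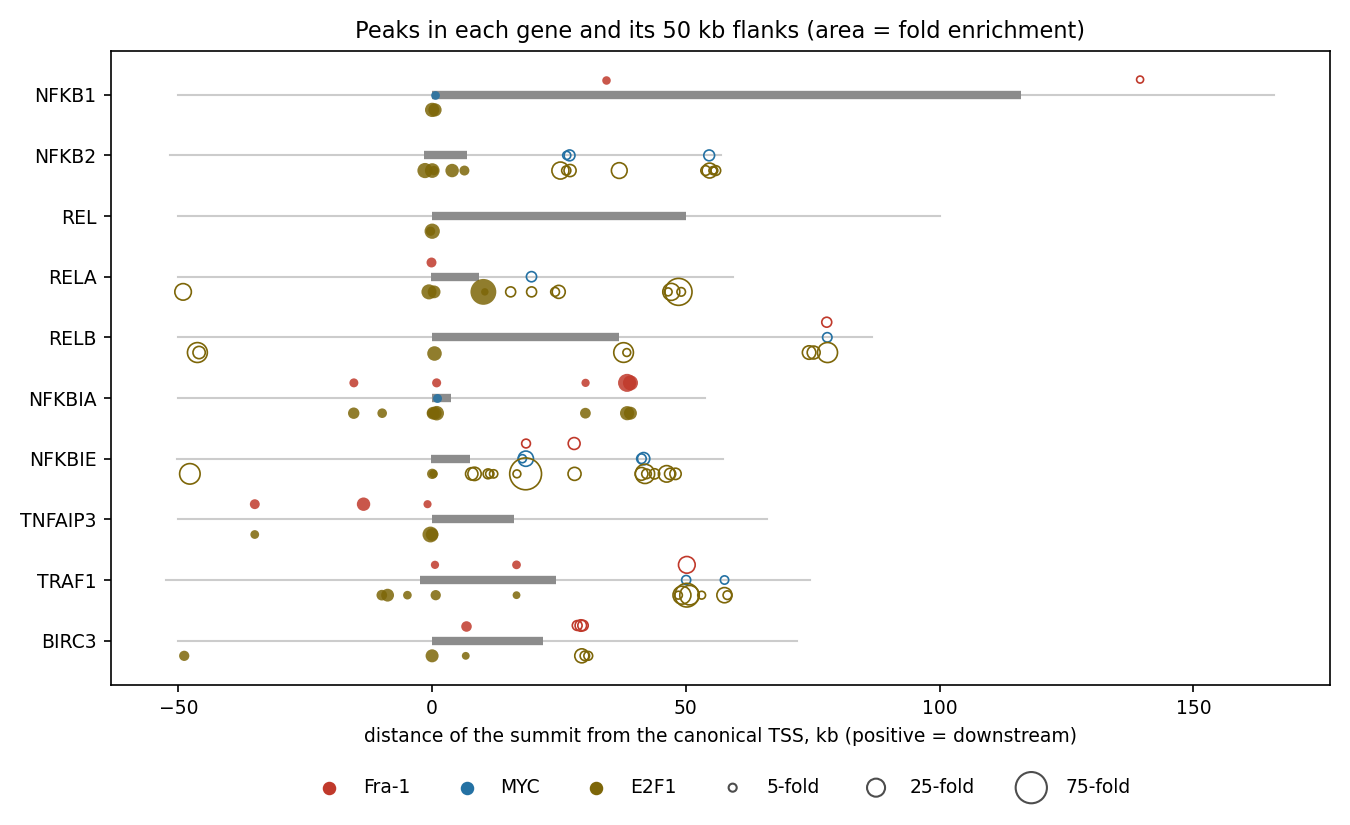
Summits of all peaks in each gene (thick grey bar) and its 50 kb flanks (thin line), with the distance from the canonical TSS in kb on the x axis. Circle area is the fold enrichment, filled circles are peaks whose nearest protein-coding TSS is that of the gene and open circles are nearest to another gene. MYC has 2 filled circles, at NFKB1 and NFKBIA, and the largest Fra-1 circle is 38401 bp downstream of the NFKBIA TSS.

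In all, 21 Fra-1, 13 MYC and 87 E2F1 peaks lay around the 10 genes. The nearest protein-coding TSS was that of the member for 13 Fra-1, 2 MYC and 36 E2F1 peaks, and the others were nearest to another gene. The strongest peak was nearest to another gene at 4 of the 8 members with Fra-1, 5 of 7 with MYC and 6 of 10 with E2F1. MYC thus appears around 7 members mainly through neighbouring promoters, since all 11 of its flank peaks lay in a promoter window of another gene. The share of peaks outside all promoter windows was 42.9% (Fra-1), 0.0% (MYC) and 14.9% (E2F1), against 73.6%, 14.3% and 32.0% in the whole lists. These sets are unlike: each territory holds a gene with its promoters, whereas the whole lists also cover sequence far from any gene. A lower share around the members follows in part from that definition, and the share in the territories of all genes was not computed.

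Fra-1 and E2F1 were often found together. Of the 21 Fra-1 peaks 18 (85.7%) overlapped an E2F1 peak by at least 1 bp, against 61.5% of all Fra-1 peaks, and all 13 MYC peaks did so, against 96.1%. The reverse share was smaller, since 16 of the 87 E2F1 peaks (18.4%) overlapped Fra-1, against 28.3% of all E2F1 peaks. Fra-1 overlapped MYC at 4 of 21 peaks (19.0%, against 5.9%). The sets differ in place, since 42.9% of these Fra-1 peaks lay outside promoter windows, against 73.6% of the whole list. In promoter windows, 4 of 5 Fra-1 peaks (members' own) and 7 of 7 (other genes) overlapped E2F1, against 75.1% of all such peaks. For Fra-1 with MYC the share by place was not computed. Regions shared by the 3 factors numbered 4: the NFKBIA promoter, and the flanking promoters of HSP90AB1, PHF19 and GEMIN7/MARK4, with overlaps of 94, 168, 13 and 23 bp.

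Outside promoter windows the members had 9 Fra-1 peaks. Of these 8 (88.9%) held an AP-1 motif within 50 bp of the summit, against 54.1% of all such Fra-1 peaks, and 7 (77.8%) overlapped E2F1, against 56.6%. In the overlapping pairs the summits lay close together, with a median of 8 bp, against 29 bp over all such pairs. In promoter windows the pairs around the members lay farther apart than those of the whole list. Their medians were 255 bp (members' own promoters) and 155 bp (promoters of other genes), against 44 bp. In the members' own promoters 3 of 5 Fra-1 peaks held the motif, and in promoter windows of other genes 1 of 7 did, against 51.1% of all Fra-1 peaks in promoter windows. Over all 21 Fra-1 peaks around the members, 12 (57.1%) held it, which was near the 53.3% of the whole list. Sequences around 6 Fra-1 summits away from the start sites of NFKBIA, TNFAIP3, TRAF1 and BIRC3 are given to show where the AP-1 motif (capitals) lies at the strongest peaks and at those with close E2F1 summits. One of them, at +39073 bp from NFKBIA, is in the window of the non-coding gene. They are hg19 sequences on the strand of the gene, 5′ to 3′, with 50 bases on either side of the summit, or 30 bases where the window would run into an untranslated region.
NFKBIA +38401 bp, chr14:35835504-35835604 (-): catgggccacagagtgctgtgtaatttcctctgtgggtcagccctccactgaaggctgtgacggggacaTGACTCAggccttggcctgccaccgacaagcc
NFKBIA +39073 bp, chr14:35834832-35834932 (-): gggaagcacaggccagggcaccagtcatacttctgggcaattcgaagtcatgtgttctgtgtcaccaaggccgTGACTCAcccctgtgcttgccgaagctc
TNFAIP3 -13524 bp, chr6:138174822-138174922 (+): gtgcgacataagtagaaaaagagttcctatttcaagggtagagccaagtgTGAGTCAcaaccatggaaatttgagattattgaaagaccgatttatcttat
TNFAIP3 -34951 bp, chr6:138153395-138153495 (+): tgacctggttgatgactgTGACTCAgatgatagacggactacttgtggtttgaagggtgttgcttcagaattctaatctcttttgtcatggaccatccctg
TRAF1 +16617 bp, chr9:123672407-123672507 (-): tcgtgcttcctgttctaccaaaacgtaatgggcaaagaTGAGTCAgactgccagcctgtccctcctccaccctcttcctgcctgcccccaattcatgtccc
BIRC3 +6613 bp, chr11:102194815-102194844 (+): aagaagcttcaTGAGTCAcacattacatct
At 5 of these 6 places, which were picked in part for close E2F1 summits, the AP-1 motif lay under both peaks. The pairs outside promoter windows that are not shown had summits 29 bp (NFKBIA at -15429 bp), 30 bp (NFKBIA at +30224 bp) and 77 bp (NFKBIE at +27976 bp) apart. The exception was TNFAIP3 at -13524 bp, where the motif was 3 bp from the Fra-1 summit and no E2F1 peak was called. Among the 63 other pathway genes 37 had a Fra-1 peak outside promoter windows, and 33 an E2F1 peak.

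Among the 63 other genes of the pathway, 20 (31.7%) had a promoter peak of Fra-1, 10 (15.9%) of MYC, 52 (82.5%) of E2F1 and 6 (9.52%) of all 3. With equal numbers of peaks these counts were 5 of 63 for Fra-1, 21 of 63 for E2F1 and 2 of 63 for all 3, and the 10 members had 0 for each. In that setting 3.41% of all protein-coding genes had Fra-1 and 25.6% had E2F1. With 10 genes, a count of 0 is near the share for Fra-1, and the share for all 3 was not computed. The shares of all protein-coding genes, for comparison with the groups below, were 13.2% (Fra-1), 17.8% (MYC) and 61.3% (E2F1). The groups are small, and differences between them were not tested. Of 10 receptors, 5 had Fra-1, 1 had MYC and 6 had E2F1. The leading gene for Fra-1 (20.6) and E2F1 (34.5) was TNFRSF12A, the receptor of TWEAK. It was also the only receptor with MYC, but that peak was weak (4.39, percentile 1.8 of the bound genes).

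Inside the cell, the 13 adaptors and ligases all had E2F1. TRAF2 and BIRC2 had Fra-1, and TRAF2 and IRAK1 had MYC, both near the shares of all genes. TRAF2, the adaptor that brings cIAP1 and cIAP2 to tumour necrosis factor receptors, had 6.71 (Fra-1), 7.27 (MYC) and 45.8 (E2F1). BIRC2 had the strongest Fra-1 peak of the group (10.0). Of the 9 kinase components, 8 had E2F1, led by CHUK (IKK-alpha, 48.9), 1 had Fra-1 (IKBKG, the regulatory subunit NEMO, 13.0) and none had MYC.

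All 11 other inhibitors had E2F1, led by the ubiquitin ligase ITCH (43.3). Fra-1 was at BCL3, TNIP1 and TNIP2, with the highest value at TNIP1, a partner of A20 (15.5), and MYC was at NFKBID and BCL3. BCL3, a nuclear IkB protein that works with p50 and p52, had 10.1 (Fra-1), 6.33 (MYC) and 35.6 (E2F1).

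Of 20 other target genes, 14 had E2F1, 9 had Fra-1 and 5 had MYC. GADD45B, a survival gene that restrains JNK signalling, was the strongest for E2F1 (85.4, a value not exceeded at any other protein-coding gene) and for MYC (8.96), with 15.1 for Fra-1. TNFAIP2 was the strongest for Fra-1 (19.7). PLAU, the urokinase gene, had 8.99 (Fra-1), 5.01 (MYC) and 37.7 (E2F1), and the cytokine gene IL6 had 6.89, 6.79 and 8.16. Hence TNFRSF12A, TRAF2, BCL3, GADD45B, PLAU and IL6 joined NFKB1 and NFKBIA as genes with promoter peaks of the 3 factors.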

How the data were processed

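Peaks called from ChIP-Seq of Fra-1, E2F1 and MYC in LM2 cells were analysed, with 1 library each. EZH2 and input were not analysed here. The authors trimmed reads (Trimmomatic 0.27), aligned them to masked hg19 (Bowtie 0.12.5), removed duplicates (Picard) and ran the MACS2 peak caller (2.0.10.20120913, q cutoff 0.01) on each library, always against the same input DNA. The deposited values are the signal (pileup of fragments at the summit), the fold enrichment (a ratio to the local input background) and −log10 p- and q-values. Fold enrichments of different factors compare only roughly, because depth differs (10758036 tags after filtering for the input, which is the background of every peak).

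Peaks were assigned to GRCh37 genes of GENCODE release 44, mapped to that build, when they overlapped a promoter window by at least 1 bp, otherwise the gene body, otherwise the flank. Peaks outside every promoter window of the 63827 annotated genes were counted separately. Nearest genes are by protein-coding TSS. Motifs were searched on both strands of the reference. One NF-kB site is counted but not reported here. The genes named are the 10 members, pathway genes with promoter peaks of all 3 factors or with the largest fold enrichment of a factor in their role, and neighbours nearest to a described peak. Members and lists were chosen with earlier results of these data known. The alternatives tried were stricter peak thresholds, equal numbers of peaks, other promoter windows, start sites and flanks, other rules of overlap and class, and other motif settings. Canonical start sites were added after seeing the data. The assignment of peaks to promoter windows and flanks and the motif search were tested on simulated data. Python 3.11.15, numpy 2.4.6, pandas 2.3.3, pysam 0.24.0 and matplotlib 3.10.9 were used.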

Additional observations from a re-analysis of the deposited data

How the results depend on the processing

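Of 194 values recomputed under the alternatives, 142 stayed within 1.5 times and 52 did not. The cause of a change was not tested beyond what the alternative itself removes. In 1 alternative, every list was reduced to its 4857 peaks of largest −log10 q. No member then kept a promoter peak of Fra-1 (0), of E2F1 (0) or of all 3 factors (0). The MYC list holds 4857 peaks and was not reduced, so both MYC members stayed by construction. In that setting 3.41%, 25.6% and 17.8% of all protein-coding genes had a promoter peak of Fra-1, E2F1 and MYC. The pathway counts became 5 for Fra-1, 21 for E2F1 and 2 for all 3. Within genes and flanks, 5 members had Fra-1, 4 had E2F1 and 2 had all 3, with 6 Fra-1 and 11 E2F1 peaks. The matching shares of all genes were not computed for genes and flanks. Overlaps were 1 for Fra-1 with MYC, 1 for Fra-1 with E2F1, 4 for MYC with E2F1 and 1 for all 3.

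With a −log10 q of at least 5, the MYC peak of NFKB1 and the Fra-1 promoter peak of TNFAIP3 were lost. This left 1 member with a MYC promoter peak and 1 with all 3, and pathway counts of 5 for MYC and 3 for all 3. The shares of all genes at this threshold were not computed. There were 8 MYC peaks around the members, with overlaps of 2 for Fra-1 with MYC, 8 for MYC with E2F1 and 2 for all 3. With windows of 1 kb either side, with start sites of protein-coding transcripts, with the summit inside the window and with canonical start sites, NFKB1 lost its Fra-1 promoter peak in each case, so that 1 member had all 3 factors. With canonical start sites, 10 pathway genes had Fra-1.

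Merging peaks within 1 kb left 47 E2F1 peaks. Keeping only peaks nearest to the member left 13 Fra-1, 2 MYC and 36 E2F1 peaks. A reciprocal overlap of 50% left 0 overlaps of Fra-1 with MYC, 7 of Fra-1 with E2F1, 4 of MYC with E2F1 and 0 of all 3. E2F1 summits with the NF-kB motif numbered 8 within 100 bp (9.2%, against 4.04% of all E2F1 peaks). With a looser motif they numbered 9 (10.3%, against 3.6%). With 1 library per factor, no replicate could be left out. No paired analysis was possible because no group has more than 1 sample.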
